A study of Mus musculus with 6 samples.

Results

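The first assembled bases of mouse chromosome 9 carried a dense run of ATAC-seq peaks. It was taken as every interval of the deposited peak table on chromosome 9 that starts below position 4000000 and is named for Gm10722, Gm11168, Gm10720, Gm10719, Gm10718, Gm10717, Gm17535, Gm10715 or Mir101c. This gave 17 of the 104 intervals in the table, with 89 of its 519 peaks. No other interval on chromosome 9 started below that position, and none of the 9 names occurred elsewhere in the table. ATAC-seq uses a transposase that cuts open chromatin, so a peak marks a stretch where many cut fragments pile up. The tissue was epididymal white adipose tissue of mice. There were 3 Armc5 KO libraries, from mice in which Armc5 was deleted in adipocytes, and 3 flox control libraries, from mice whose floxed Armc5 was left undeleted. The promoter that drove the deletion, and the strain, age and sex of the mice, are not given in the sources used here. Other cells of the tissue are not targeted by the deletion, so fewer cells of a type and less open chromatin per cell cannot be told apart in these bulk samples. Nothing in the labels says that each sample is a separate mouse, so every p-value here reflects the spread between the deposited samples, part or all of which may be technical.

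Names beginning with Gm are given to mouse gene models predicted from sequence, most of which have no described function. Mir101c is a microRNA gene, and microRNAs are short RNAs that pair with messenger RNAs, largely through a seed near their 5′ end. The numbering of mouse chromosomes begins at the centromere, and the stretches beside it are rich in satellite repeats, which occur in many near-identical copies, most of them missing from the assembly. Reads from such copies can be placed on the few copies that were assembled. Whether the intervals lie in such repeats was not tested, because no genome sequence was used here.

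Mir101c was the one member name of 9 found in the RefSeq table of the same build (GRCm38.p6, the assembly also called mm10). The mature sequences below, from RefSeq, show the microRNA named in the cluster and how its sequence relates to others of its family. Capitals mark the seed, bases 2 to 8.
mmu-miR-101c: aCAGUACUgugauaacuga
mmu-miR-101a-3p: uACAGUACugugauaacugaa
mmu-miR-101b-3p: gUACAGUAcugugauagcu
The whole of miR-101c is contained in miR-101a-3p, starting at base 2 of miR-101a-3p, so the annotated seeds are shifted against each other by 1 base. RefSeq's miR-101b-3p begins 1 base further upstream of the shared stretch, so its seed is shifted again. None of the cluster's peaks covered the gene itself. The hairpin lies at chr9:3038669-3038743, and the interval named for it ended 453 bp before it.

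As in the rest of this table, depth is known only from the peaks. The number of fragments over a peak's summit (its pileup) and the local background were solved from the deposited fold enrichment and p-value. Over the 55 intervals called in all 6 libraries, the median pileup was 56, 74 and 56 in Armc5 KO 1, 2 and 3, and 85, 90 and 58 in flox control 1, 2 and 3. Flox control 3 stood apart from the others: its pileups differed from those of the other 5 libraries by a chi-square of 29.98 to 54.7 per degree of freedom, against 0.881 to 1.75 among Armc5 KO 1, 2 and 3 and flox control 1. Flox control 2 lay between, at 3.09 to 3.91 with those 4 libraries. Values without flox control 3 are given beside the fitted differences and the cluster's totals. None of 17 marker genes of adipocytes, macrophages, endothelium and adipocyte progenitors named an interval, so the labelled tissue could not be checked from this table.

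The cluster ran from 3000005 to 3038215 (mm10, counted from 1), a span of 38.2 kb, of which the intervals covered 3707 bp or 9.70%. Intervals were 103 to 369 bp wide, with a median of 190 bp. Gaps between neighbours ranged from 128 to 8049 bp, and 6 of the 16 were under 1000 bp. The authors' annotation classed 10 intervals as promoter, 5 as transcription end site and 2 as exon, 16 of them of transcripts typed as protein-coding and 1 of a microRNA. These assignments overlap: 1 transcript annotates both the exon interval named Gm17535 and an end-site interval named Gm10715, since the name goes by the nearest start site. Where a gene named several intervals, they are numbered here along the chromosome.

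Most of the cluster was called in both groups. Of the 17 intervals, 14 had a peak in Armc5 KO 1, 13 in Armc5 KO 2 and 14 in Armc5 KO 3, or 13.7 ± 0.577 on average. In flox controls 1, 2 and 3 the numbers were 16, 15 and 13, on average 14.7 ± 1.53 (SD, n = 3 per group). The groups overlapped, and the mean difference, 1 interval fewer in Armc5 KO, lay within the spread of the flox controls. Without flox control 3 it was -1.83 intervals. Counting only peaks of at least 112 bp, with flox control 3 included, it was -2.0 intervals. The narrowest peak was 112 bp in flox control 3, and 86 to 88 bp in the other 5 libraries. Over all 104 intervals of the table, 85, 88 and 75 were called in Armc5 KO 1, 2 and 3, and 94, 97 and 64 in flox controls 1, 2 and 3. Flox control 3 thus had 76.5% of the cluster's intervals and 61.5% of all, and Armc5 KO 3 had 82.4% and 72.1%. The cluster's share was also the higher one in Armc5 KO 1 and flox control 1. It was the lower one in Armc5 KO 2 and flox control 2. A peak was present in all 6 libraries at 10 intervals, in 5 libraries at 2, in 4 at 3, in 2 at 1 and in a single library at 1. Summed peak width was 2526, 2577 and 2582 bp in Armc5 KO 1, 2 and 3, against 3097, 3036 and 2810 bp in flox controls 1, 2 and 3. These sums did not overlap between the groups, the mean being 2562 ± 31.0 bp in Armc5 KO and 2981 ± 151 bp in flox controls, and no test was run on a sum over chosen intervals. The difference was -419 bp, and -505 bp without flox control 3. Part of it lay at Gm10719, with peaks of 122, 123 and 355 bp in Armc5 KO 1, 2 and 3. Peaks there were 361, 363 and 365 bp in flox controls 1, 2 and 3. Whether close peaks were called as 1 or 2, as at Gm10717 interval 3, also enters the sums. Outside the cluster, called peaks summed to 18840, 21036 and 16933 bp in Armc5 KO 1, 2 and 3, and to 20293, 22327 and 14452 bp in flox controls 1, 2 and 3. Those sums overlapped between the groups, and whether the cluster differs from them was not tested. Mean fold enrichment over the cluster's called peaks, a set that differs between libraries, was 11.4 ± 0.0731 in Armc5 KO and 12.3 ± 0.552 in flox controls (SD, n = 3 each). It was 12.0152 in flox controls without flox control 3. Median folds per called interval, also over sets that differ, overlapped between the groups. They were 9.19, 9.27 and 9.92 in Armc5 KO 1, 2 and 3, and 9.02, 11.1 and 10.2 in flox controls 1, 2 and 3. Over the 10 intervals called in all 6 libraries, median folds did not overlap. They were 10.7, 11.4 and 9.92 in Armc5 KO 1, 2 and 3, and 13.5, 12.3 and 12.5 in flox controls 1, 2 and 3. This difference was not tested, and the matching medians over the common intervals outside the cluster were not computed. Per called interval outside the cluster, over sets that differ, median folds overlapped between the groups. They were 11.8, 14.9 and 12.2 in Armc5 KO 1, 2 and 3, and 12.6, 13.9 and 13.3 in flox controls 1, 2 and 3.

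**Figure D1:**
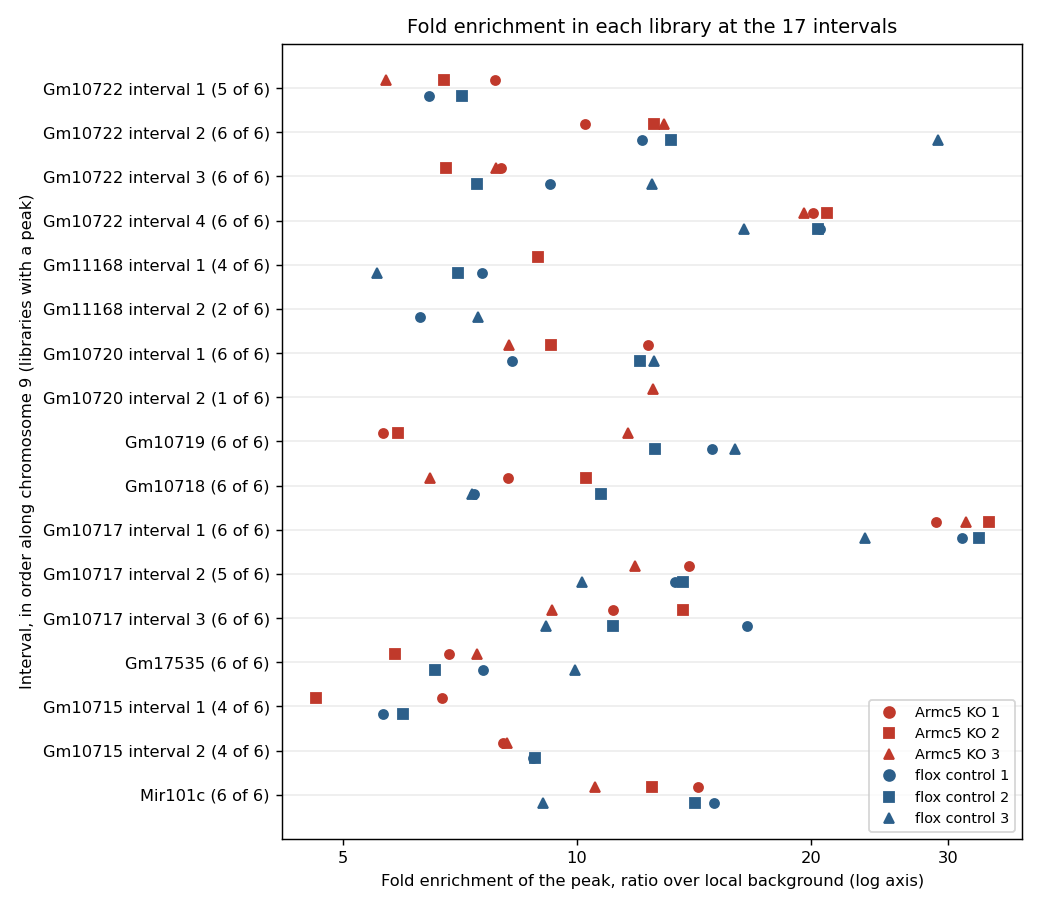
Fold enrichment (ratio over local background, log axis) of the peak in each library at each of the 17 intervals, in chromosome order from top to bottom; red points are Armc5 KO, blue points flox control, and a missing point means no called peak. Gm10717 interval 1 is highest in 5 of the 6 libraries, with values from 23.4 to 33.8. Flox control 3 (blue triangle) leads at Gm10722 interval 2 with 29.1. Among the 10 intervals called in all 6 libraries, the groups separate only at Gm10719.

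Gm10722 opens the cluster and named 4 intervals at chr9:3000005-3000179, chr9:3000308-3000649, chr9:3000822-3001052 (all at the promoter) and chr9:3001267-3001520 (exon 2 of 4). Interval 1 had a peak in 5 libraries. Its fold was 7.85, 6.75 and 5.69 in Armc5 KO 1, 2 and 3 and 6.45 and 7.11 in flox controls 1 and 2. The groups overlapped there. Interval 2 had folds of 10.2, 12.6 and 12.9 in Armc5 KO 1, 2 and 3, against 12.1, 13.2 and 29.1 in flox controls 1, 2 and 3. One library, flox control 3, was far above the other 5. Interval 3 had 7.999, 6.79 and 7.88 in Armc5 KO 1, 2 and 3, against 9.24, 7.45 and 12.5 in flox controls 1, 2 and 3. Interval 4 was the steadiest of the gene, at 20.1, 21.0 and 19.6 in Armc5 KO 1, 2 and 3 and 20.5, 20.4 and 16.4 in flox controls 1, 2 and 3. Here flox control 3 was the lowest by fold, although its pileup of 180 fragments was the highest, over 86 to 120 in the other libraries.

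Fitted differences on log2(fold + 1), Armc5 KO minus flox control, were -0.47 (SE 0.33), -0.30 (SE 0.20) and 0.08 (SE 0.17) for Gm10722 intervals 2, 3 and 4. None passed (adjusted p = 0.949 each, limma). Without flox control 3 they were -0.09, -0.12 and -0.02, so the direction at interval 4 turned and the size at intervals 2 and 3 shrank by more than 1.5 times.

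The pileups showed the same library more sharply. At Gm10722 interval 2, the summit carried 46, 70 and 56 fragments in Armc5 KO 1, 2 and 3, and 69, 74 and 320 in flox controls 1, 2 and 3. That of flox control 3 was 5.08 times the mean of the other 5 libraries. Over the 55 intervals of the table called in all 6 libraries, the median of this ratio was 0.774, with no adjustment for depth. The ratio was 3.37 at interval 3 and 1.68 at interval 4, then 0.529 to 1.43 at the intervals called in all 6 libraries from Gm10720 onwards. The local background, which the peak caller takes from the surroundings of the peak, moved with it: it was 3.59, 4.66 and 3.41 fragments at interval 2 in Armc5 KO 1, 2 and 3, and 4.77, 4.68 and 10.05 in flox controls 1, 2 and 3. At Gm10717 interval 1, further along the cluster, it was lower in flox control 3 than in any other library, at 2.87, 3.32 and 2.197 in Armc5 KO 1, 2 and 3 and 3.35, 3.36 and 1.90 in flox controls 1, 2 and 3. The intervals of Gm10722 held 38.0, 39.5 and 41.9% of the summed pileup of the 10 common intervals in Armc5 KO 1, 2 and 3, and 38.7, 38.9 and 72.1% in flox controls 1, 2 and 3.

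**Figure D2:**
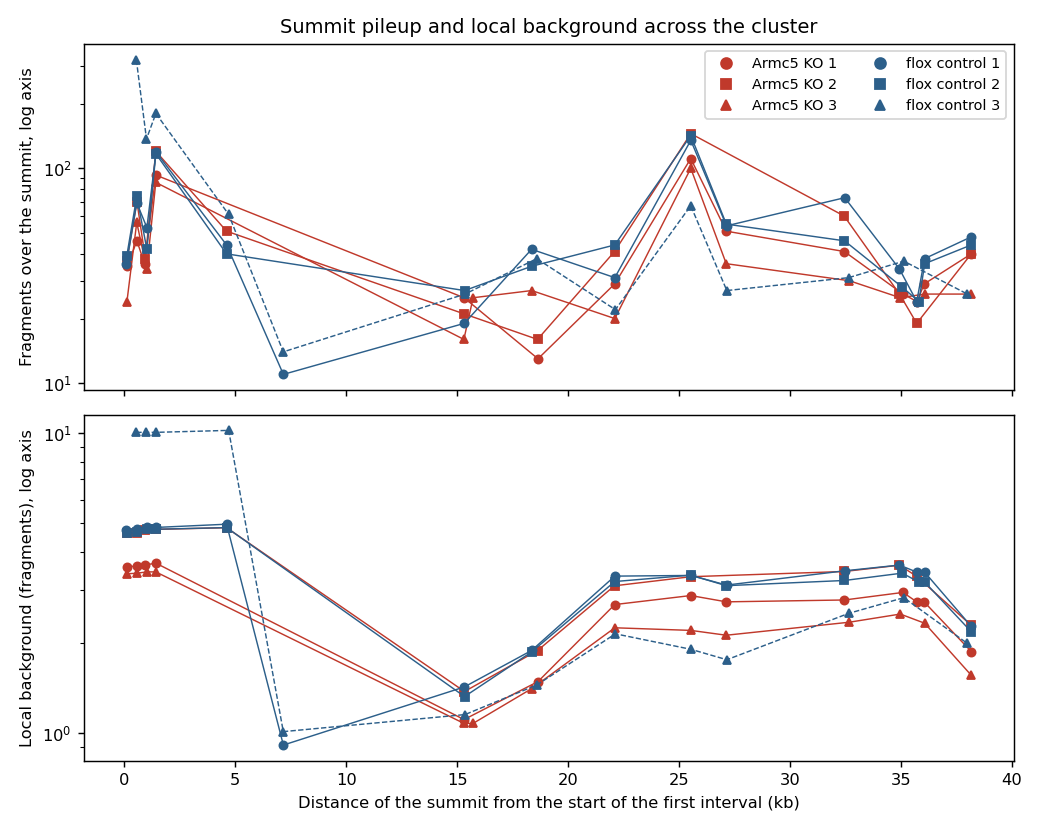
Fragments over the summit (upper panel) and local background (lower panel), both in fragments on log axes, against distance of the summit from the start of the first interval in kb; lines join the called intervals of 1 library and carry no data between points. Flox control 3 (dashed) lies above the other libraries over Gm10722, with 320 fragments at interval 2, and lowest in both panels at Gm10717 interval 1, with 67 fragments.

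Gm11168 named 2 intervals that were called unevenly. Interval 1, at the promoter (chr9:3004563-3004770), had a fold of 8.92 in Armc5 KO 2, and of 7.55, 7.03 and 5.54 in flox controls 1, 2 and 3. It was not called in Armc5 KO 1 and 3, while the Armc5 KO library that had it was the highest of the 4. Interval 2, at the transcription end site (chr9:3007102-3007222), was called in flox controls 1 and 3, with folds of 6.28 and 7.46 and pileups of 11 and 14 fragments. These were the lowest pileups of the cluster but for 1 Armc5 KO peak at Gm10719, so counting error there is large, and an uncalled interval does not show that the chromatin was closed.

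Gm10720 had 2 intervals at its promoter, 233 bp apart. Interval 1 (chr9:3015272-3015461) had folds of 12.3, 9.27 and 8.19 in Armc5 KO 1, 2 and 3, and of 8.25, 12.1 and 12.6 in flox controls 1, 2 and 3. The groups overlapped over almost their whole range, and the log2 difference was -0.13 (SE 0.23, adjusted p = 0.949, limma). Interval 2 (chr9:3015695-3015810) was called in Armc5 KO 3 alone. Its fold there was 12.5 with 25 fragments over the summit, above the fold of 8.19 and pileup of 16 that the same library had at interval 1.

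Gm10719 was the interval with the clearest gap between groups. At its promoter (chr9:3018320-3018688), the fold was 5.64, 5.90 and 11.6 in Armc5 KO 1, 2 and 3, against 14.9, 12.6 and 16.0 in flox controls 1, 2 and 3. All Armc5 KO values lay below all flox values, with Armc5 KO 3 much closer to the flox controls than to the other Armc5 KO libraries. Means were 7.73 ± 3.39 in Armc5 KO and 14.5 ± 1.73 in flox controls (SD, n = 3 each). Pileups were 13, 16 and 27 fragments in Armc5 KO 1, 2 and 3, and 42, 35 and 38 in flox controls 1, 2 and 3, over a background of 1.41 to 1.88 fragments in all libraries. The log2 difference of -0.89 (SE 0.28, 95% interval -1.53 to -0.24) did not pass adjustment over the 55 intervals (adjusted p = 0.742, limma). Without Armc5 KO 3 it was -1.19 and passed (adjusted p = 0.0429, limma), and without flox control 3 it was -0.82 and did not pass (adjusted p = 0.337, limma). Nor did it pass without Armc5 KO 1 or 2 (adjusted p = 0.985 and 0.954, limma). The same held without flox control 1 or 2 (adjusted p = 0.878 and 0.624, limma). With same-numbered libraries fitted as a block, a pairing the labels do not state, the difference of -0.89 passed (adjusted p = 0.00205, limma). Of all 55 intervals, 5.45% had every Armc5 KO value below every flox value and 1.82% the reverse, against 1 and 0 of the 10 intervals here.

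Peak shape at Gm10719 differed with the fold. The peaks of Armc5 KO 1 and 2 were 122 and 123 bp wide and covered only the right-hand end of the interval, from 3018554 and 3018553. Those of Armc5 KO 3 and of flox controls 1, 2 and 3 were 355, 361, 363 and 365 bp wide and filled it. Summits lay at 3018648, 3018626 and 3018365 in Armc5 KO 1, 2 and 3, and at 3018358, 3018355 and 3018590 in flox controls 1, 2 and 3. The folds compared at this interval thus came from positions up to 293 bp apart, and flox control 3 reached its fold of 16.0 at the end where Armc5 KO 1 and 2 had theirs. The −log10 q of the Armc5 KO peaks was 4.19, 5.71 and 20.6, against 36.3, 27.4 and 35.3 in flox controls 1, 2 and 3. The peak of Armc5 KO 1 had the least support of the 89 peaks in the cluster.

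Gm10718 named 1 interval, annotated to a transcription end site (chr9:3022053-3022205). Its folds were 8.16, 10.3 and 6.48 in Armc5 KO 1, 2 and 3, and 7.39, 10.7 and 7.33 in flox controls 1, 2 and 3. The groups overlapped almost fully, with a log2 difference of -0.03 (SE 0.22, adjusted p = 0.949, limma).

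Gm10717 carried the strongest peak of the cluster by fold, though not by pileup, and named 3 intervals. Interval 1, at a promoter (chr9:3025477-3025619), had folds of 28.9, 33.8 and 31.6 in Armc5 KO 1, 2 and 3, and 31.3, 32.8 and 23.4 in flox controls 1, 2 and 3. Its pileups were 111, 145 and 100 fragments in Armc5 KO 1, 2 and 3, and 135, 142 and 67 in flox controls 1, 2 and 3. It ranked between 14 and 19 among all called intervals of each library by fold. The groups overlapped, flox control 3 being the lowest library by both measures. Summits of all 6 libraries fell within 4 bp of each other, from 3025532 to 3025536. On the log2 scale the groups differed by 0.12 (SE 0.17, adjusted p = 0.949, limma; 95% interval -0.29 to 0.52), and by -0.03 without flox control 3.

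Interval 2 of Gm10717 (promoter, chr9:3027099-3027222) had folds of 13.9 and 11.9 in Armc5 KO 1 and 3, and of 13.4, 13.7 and 10.2 in flox controls 1, 2 and 3. It was not called in Armc5 KO 2, although that library had the highest fold of all at interval 1. Interval 3 (transcription end site, chr9:3032360-3032716) held several peaks in some libraries. Armc5 KO 1, 2 and 3 and flox control 2 each had 2 peaks there, while flox control 1 had 1 peak of 351 bp and flox control 3 had 1 of 296 bp. Folds of the left and right peak were 11.1 and 7.45 in Armc5 KO 1, 13.7 and 6.55 in Armc5 KO 2, and 7.77 and 9.28 in Armc5 KO 3. They were 11.1 and 9.78 in flox control 2, while the single peaks reached 16.6 in flox control 1 and 9.13 in flox control 3. The left peak was the higher one in Armc5 KO 1 and 2 and flox control 2, and the right peak in Armc5 KO 3. With the highest peak per library, the log2 difference was -0.08 (SE 0.26, adjusted p = 0.949, limma).

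Gm17535 named an exon interval (exon 2 of 4, chr9:3034875-3035228). Folds were 6.85, 5.84 and 7.45 in Armc5 KO 1, 2 and 3, and 7.56, 6.58 and 9.94 in flox controls 1, 2 and 3. The groups overlapped, with flox control 3 the highest, and the log2 difference was -0.22 (SE 0.18, adjusted p = 0.949, limma), or -0.07 without flox control 3. Its summits ranged over 196 bp among the libraries.

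Gm10715 named 2 weaker intervals that flox control 3 lacked. Interval 1 (transcription end site, chr9:3035698-3035858) had folds of 6.70 and 4.62 in Armc5 KO 1 and 2, and of 5.64 and 5.98 in flox controls 1 and 2. The value of 4.62 was the lowest fold of the cluster. Interval 2 (promoter, chr9:3035998-3036100) had 8.04 and 8.13 in Armc5 KO 1 and 3, and 8.79 and 8.84 in flox controls 1 and 2. Both called Armc5 KO values there lay below both flox values, with only 2 libraries in each group. The share of such separations among other intervals called in as few libraries was not counted. In a fit over the 84 intervals called in at least 2 libraries of each group, the log2 difference was -0.05 (SE 0.18) at interval 1 and -0.11 (SE 0.16) at interval 2, with an adjusted p of 0.985 for each (limma).

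The Mir101c interval (chr9:3037910-3038215) closed the cluster. Its folds were 14.3, 12.5 and 10.6 in Armc5 KO 1, 2 and 3, and 15.0, 14.2 and 9.04 in flox controls 1, 2 and 3. The groups overlapped, with flox control 3 again the lowest, and the log2 difference was -0.01 (SE 0.24, adjusted p = 0.966, limma). In 5 libraries the summit fell within 4 bp, from 3038176 to 3038180. In flox control 3 it lay at 3038002, within the same interval.

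**Figure D3:**
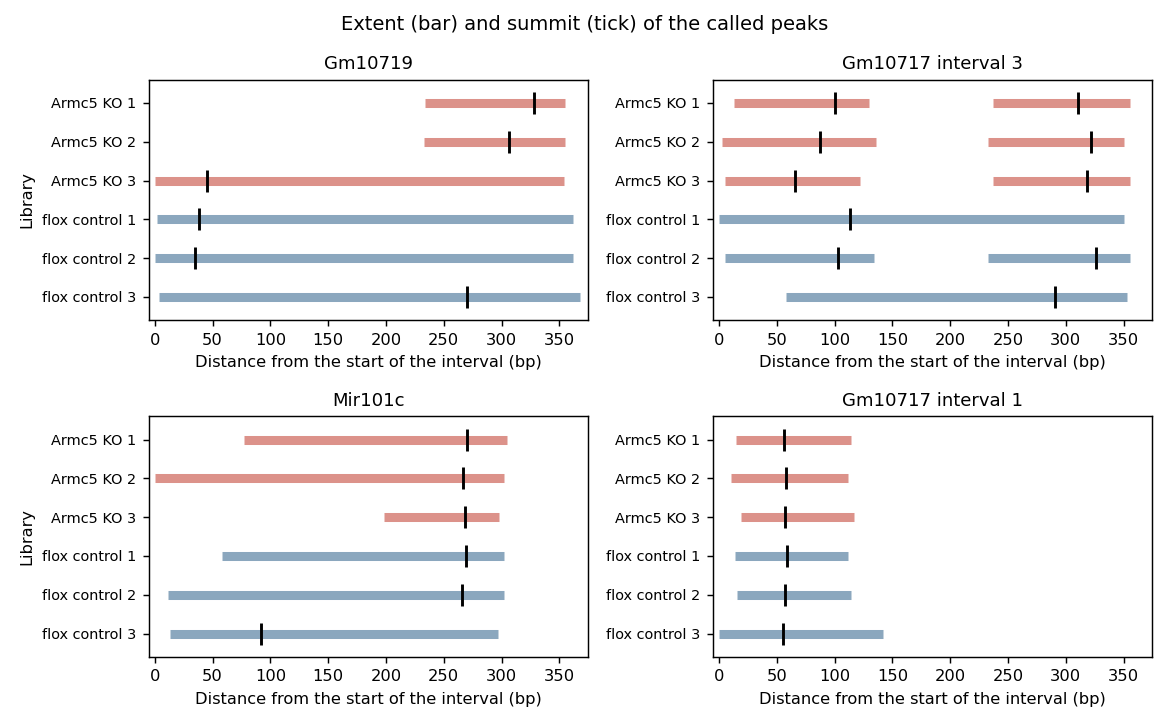
Extent (bar) and summit (tick) of the called peaks in each library at 4 intervals, as distance from the start of the interval in bp; Armc5 KO is red and flox control blue. At Gm10719 the peaks of Armc5 KO 1 and 2 cover 122 and 123 bp against 355 to 365 bp in the other libraries. At Gm10717 interval 3, 4 libraries have 2 peaks and 2 have 1, while at Gm10717 interval 1 all 6 summits fall within 4 bp.

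With all 6 libraries taken as unpaired, no difference between Armc5 KO and flox control across the cluster passed the test. Of the 10 intervals called in all 6 libraries, limma called 0 at an adjusted p of 0.05, against 0.0% of all 55 intervals tested. At an unadjusted p of 0.05 it called 1, Gm10719, which was also the one call among the 55 (1.82%). The adjusted count was again 0 without flox control 3 or any other single library except Armc5 KO 3, and 1, Gm10719, without Armc5 KO 3. It was also 1, Gm10719, with same-numbered libraries fitted as a block (adjusted p = 0.00205, limma), the 1 call among the 55. Fitted differences were below 0 at 8 of the 10 intervals and above 0 at 2, beside 37 of 55 (67.3%) below 0 over the whole table. The median log2 difference was -0.10 over the 10 intervals and -0.05 over all 55. Without flox control 3, 10 of the 10 and 46 of the 55 (83.6%) were below 0, with medians of -0.10 and -0.09. The values without it were -0.03 at Gm10720 interval 1, -0.11 at Gm10718, -0.25 at Gm10717 interval 3 and -0.22 at Mir101c. The 95% intervals, not adjusted for the 55 tests, reached between 0.40 and 0.77 to either side on the log2 scale. Differences of that size could thus go undetected here. Larger ones could as well, since the -0.89 at Gm10719 did not pass adjustment. The fit over intervals called in at least 2 libraries of each group took in 14 of the cluster's 17 intervals and also called 0, against 0.0% of its 84 intervals.

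**Figure D4:**
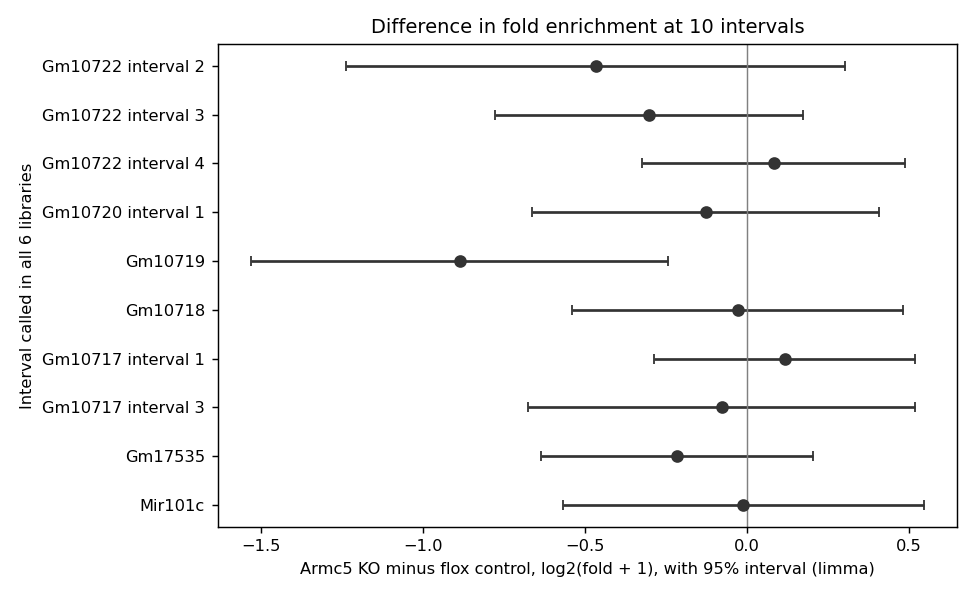
Difference in fold enrichment, Armc5 KO minus flox control on the log2(fold + 1) scale, with its 95% interval from limma, for the 10 intervals called in all 6 libraries (3 per group), in chromosome order from top to bottom. The 95% intervals of 9 include 0. That of Gm10719, centred on -0.89, does not, and its adjusted p was 0.742.

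Outside the cluster, the 3 intervals whose log2(fold + 1) ran most like the mean of the 10 intervals over the 6 libraries were those named for Cdk8 (r = 0.871), Muc3 (r = 0.793) and Gm28502 (r = 0.735). Cdk8 encodes a kinase of the Mediator complex, and Muc3 a mucin. The 6 points of each correlation share libraries and depth. Over the 5 libraries other than flox control 3, r was 0.941, 0.669 and 0.651 for Cdk8, Muc3 and Gm28502. The Cdk8 interval had folds of 34.3, 35.6 and 33.8 in Armc5 KO 1, 2 and 3, and of 40.9, 37.8 and 50.6 in flox controls 1, 2 and 3. Flox control 3 was the highest library there, as it was at Gm10722 interval 2.

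The other dense stretches of the table give a scale for these values, with no test of the difference. Of the 12 intervals at the start of chromosome 11, at Sfi1 and its neighbours, 4 were called in all 6 libraries, as were 7 of the 9 intervals at Gm10800, Gm10801 and Gm21738 and 10 of the 17 on chromosome 9. Peak folds ranged from 4.62 to 33.8 on chromosome 9, from 3.11 to 13.8 at the start of chromosome 11 and from 4.47 to 42.0338 at Gm10800, Gm10801 and Gm21738. The pileup of flox control 3 was between 0.529 and 5.08 times the mean of the other 5 libraries over the 10 common intervals on chromosome 9. It was between 0.492 and 1.04 times that mean at the start of chromosome 11, and between 1.03 and 3.76 times it at Gm10800, Gm10801 and Gm21738. The median of this ratio over all 55 common intervals of the table was 0.774.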

How the data were processed

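The deposited table gives, per the file headers, whether each library had a called peak, its start, end and summit offset, its fold over background and its p-value and q-value as −log10. Calling was thus done library by library. The submitters' processing notes name MACS2 2.2.7.1, Bowtie2 2.3.5.1, cutadapt 4.0, deepTools 3.5.1 and mm10. The sources used here do not say how reads with many placements, duplicates or excluded regions were handled, which bears on repeated sequence. Folds were set within each library by the authors and not normalized between libraries. The WT columns were taken to be the flox controls. Starts were taken as counted from 0 and are printed counted from 1. The deposited distance of the Mir101c interval to its start site, 681 bp, was the same as that computed from RefSeq coordinates.

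Whole pileups and backgrounds were solved from fold = (pileup + 1)/(background + 1) and a Poisson tail. All 519 peaks matched within 0.005 of the deposited −log10 p, and 512 had no second whole number within it. Group differences were fitted with limma 3.58.1 (R 4.3.3, trend) on log2(fold + 1), using the highest peak per library, over the 55 intervals called in all 6 libraries, with Benjamini-Hochberg adjustment at 0.05 over all of them. This scale understates differences between low folds. Requiring a mean fold above 1 left out no interval. The solver and the fit were tested on simulated data. Pileups of Armc5 KO 1 and 2 agree within sampling noise, with a ratio of chi-square to degrees of freedom of 0.881, as nearly did Armc5 KO 1 and 3 (1.04) and Armc5 KO 1 and flox control 1 (1.12), so all were kept as separate samples.

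All 17 intervals were described, by the rule for named genes. The members, lists and comparisons were chosen with earlier results of these data known. Correlations of deviations between same-numbered libraries were 0.0258, 0.605 and 0.276, so the numbers were not taken to pair samples.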

Additional observations from a re-analysis of the deposited data

How the results depend on the processing

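For the 2 counts of intervals past the adjusted threshold, in the cluster and in the whole table, the result of 0 held with either other pseudocount, without the low-value filter, with a mean fold above 5, with intervals called in at least 2 libraries of each group, the peak nearest the median summit, median-centred fold or pileup, the local ratio, and Armc5 KO 1 and 2 averaged. The last 2 were chosen after seeing the data. Leaving out each library gave 0 to 1 in both, the 1 being Gm10719 without Armc5 KO 3. A replicate block, for which the labels state no pairing, made both counts 1, again Gm10719 (adjusted p = 0.00205, limma). Its adjusted p ranged from 0.00205 to 0.985 over all alternatives, and its log2 difference lay between -1.19 and -0.72 on leaving out single libraries. In the pairing check, 4 of 6 libraries were closest to the library of their own number. The median log2 difference of the 10 intervals was -0.10, but 0.030 with median-centred pileup, and lay between -0.18 and 0.018 on leaving out single libraries. Median-centred pileup turned Gm10722 interval 4 to -0.15, Gm10720 interval 1 to 0.10, Gm10718 to 0.20, Gm10717 interval 3 to 0.15 and Mir101c to 0.18, and the local ratio turned Mir101c to 0.053. Leaving out libraries gave -0.019 to 0.14 at Gm10722 interval 4, -0.18 to 0.13 at Gm10718, -0.028 to 0.21 at Gm10717 interval 1, -0.25 to 0.14 at Gm10717 interval 3 and -0.22 to 0.11 at Mir101c. The causes were not tested. On leaving out single libraries, the difference in called intervals was -1.83 to -0.33 and that in called bases -505 to -361 bp. Keeping only peaks with a −log10 q of at least 5 gave -1.33 intervals and -480 bp. Keeping only peaks of at least 112 bp gave -2.0 intervals and -514 bp. Calls were then 12, 11 and 9 in Armc5 KO 1, 2 and 3, and 12, 13 and 13 in flox controls 1, 2 and 3. Pileups of 11 to 320 fragments limit the precision of single peaks. No count model was fitted between the groups, because the table holds no read counts. Solved pileups served to describe libraries and intervals, to compare pairs of libraries and in the pileup alternatives. The main fit used folds.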
